A study of Homo sapiens with 18 samples.

Results

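DRIP–seq recovers DNA:RNA hybrids with the S9.6 antibody, and 28995 genomic regions were called by it in each of 6 peak lists from MCF10A cells. These common regions were found by joining peak windows that overlapped by 1 bp or more across the lists, on chromosomes 1 to 22 and X, and keeping the joined regions with a window in all 6. The regions were thus chosen by the peak calls themselves, and made up 11.6% of the 250966 joined regions. The lists came from A3B KO cells given DMSO, PMA for 2 h or PMA for 6 h, and from WT cells given the same treatments, with PMA at 25 ng/ml. MCF10A is a nontumorigenic breast epithelial line, PMA is a phorbol ester that activates protein kinase C, and DMSO is its vehicle. The A3B KO line is a single clone, made by genome editing with a guide that matches both APOBEC3A and APOBEC3B. In a second experiment, MCF10A cells that make eGFP-tagged A3B upon doxycycline were profiled by ChIP–seq with an antibody to GFP, which gave 3 more lists: doxycycline (1 µg/ml, 24 h) with PMA for 2 h, doxycycline with DMSO, and DMSO with no doxycycline. Each of the 9 conditions was 1 immunoprecipitation library, pooled from several pulldowns for both DRIP–seq and ChIP–seq and set against its input. Differences between conditions and differences between libraries thus cannot be told apart, and no test between conditions is given.

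An R-loop forms when RNA pairs with the template strand of DNA and leaves the other DNA strand unpaired. R-loops are best known just downstream of the starts of transcribed genes and near gene ends, where a G-rich nontemplate strand favours the hybrid. APOBEC3B (A3B) is a DNA cytosine deaminase that acts on unpaired DNA. DNA was sonicated before the pulldown and peaks are given as windows of 500 bp around a summit, so a hybrid is placed only to about that scale.

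The sequences under 6 of these regions are shown because the results below turn on them. The first lies at the strongest region, the next trio at regions among those that moved most with PMA in both lines, and the last pair at regions that ranked highest in A3B KO against WT cells. Each is the part of the 300 bases around the strongest summit that holds no untranslated region, in hg38, printed 5′ to 3′ on the strand given, with runs of 3 or more G in capitals.
RPS12: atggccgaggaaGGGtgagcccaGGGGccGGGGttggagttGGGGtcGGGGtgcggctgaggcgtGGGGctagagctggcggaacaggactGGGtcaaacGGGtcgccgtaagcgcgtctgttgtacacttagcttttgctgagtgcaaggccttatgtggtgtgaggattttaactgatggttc
HBEGF: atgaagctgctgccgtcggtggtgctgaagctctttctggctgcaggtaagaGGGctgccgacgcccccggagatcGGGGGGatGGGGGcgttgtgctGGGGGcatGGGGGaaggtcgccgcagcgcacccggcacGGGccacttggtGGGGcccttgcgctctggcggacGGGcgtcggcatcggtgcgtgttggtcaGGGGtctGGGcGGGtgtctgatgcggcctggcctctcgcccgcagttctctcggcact
EGR1: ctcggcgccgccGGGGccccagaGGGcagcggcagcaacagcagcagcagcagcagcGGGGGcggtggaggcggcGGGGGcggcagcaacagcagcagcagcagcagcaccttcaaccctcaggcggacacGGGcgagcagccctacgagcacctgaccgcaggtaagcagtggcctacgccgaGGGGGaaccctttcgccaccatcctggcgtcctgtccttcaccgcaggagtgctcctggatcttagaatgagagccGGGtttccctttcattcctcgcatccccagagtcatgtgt
DDX21: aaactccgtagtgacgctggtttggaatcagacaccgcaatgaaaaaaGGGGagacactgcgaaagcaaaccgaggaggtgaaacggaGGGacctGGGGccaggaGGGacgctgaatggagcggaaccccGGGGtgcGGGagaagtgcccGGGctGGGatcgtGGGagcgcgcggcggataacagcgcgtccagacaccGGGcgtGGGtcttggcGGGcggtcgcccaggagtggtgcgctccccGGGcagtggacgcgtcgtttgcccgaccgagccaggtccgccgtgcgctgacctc
GSAP: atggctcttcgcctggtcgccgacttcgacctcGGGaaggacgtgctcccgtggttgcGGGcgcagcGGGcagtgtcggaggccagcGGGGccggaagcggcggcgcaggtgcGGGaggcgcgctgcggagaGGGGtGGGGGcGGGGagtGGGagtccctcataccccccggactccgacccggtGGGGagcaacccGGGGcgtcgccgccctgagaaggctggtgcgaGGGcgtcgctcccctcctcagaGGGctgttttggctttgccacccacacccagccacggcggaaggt
IL1A: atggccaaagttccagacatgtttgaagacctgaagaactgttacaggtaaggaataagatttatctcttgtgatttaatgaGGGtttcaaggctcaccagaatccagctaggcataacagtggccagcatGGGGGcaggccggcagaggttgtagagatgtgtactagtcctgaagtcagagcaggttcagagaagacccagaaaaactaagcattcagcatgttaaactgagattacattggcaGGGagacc
The RPS12 stretch (chr6:132814769-132814953, plus strand) comes from around a summit in a later intron and holds 8 G runs. The HBEGF stretch (chr5:140346072-140346328, minus strand), around a summit in the first intron, holds 11. The EGR1 stretch (chr5:138465906-138466205, plus strand), around a summit in a coding exon, holds 7. The DDX21 stretch (chr10:68956235-68956534, plus strand), around a summit in the first intron, holds 13. The GSAP stretch (chr7:77416026-77416321, minus strand), around a summit in the first intron, holds 13. The IL1A stretch (chr2:112783517-112783770, minus strand), around a summit in a later intron, holds 3. On the opposite strand the same stretches hold 1, 4, 6, 5, 9 and 1 G runs in this order, so EGR1 was nearly even. The feature named is that of the summit, and the stretch around it can hold both coding exon and intron. Counted on the richer strand of the 300 bases around each strongest summit, 10 or more G runs were found in 12.1% of common regions and 6.66% of the 96475 regions called in 1 list, with medians of 5 and 4 runs. The stretches printed above are 185 to 300 bases long, so counts in the shorter ones are not like for like with these. At least 1 GGG run was found in 99.3% of common regions, so its presence alone separates nothing.

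Because the rule takes regions called everywhere, their signal and their width are set by it and are given as description. Common regions were 855 bp wide at the median (quartiles 597 and 1037, widest 8488), against 672 bp for the 21666 regions called in 5 lists and 500 bp for those called in 1. They covered 26.02 Mb. They held 36.4%, 31.0% and 23.8% of the windows of the A3B KO lists (DMSO, PMA 2 h and PMA 6 h) and 38.8%, 33.5% and 25.8% of the windows of the WT lists, where the A3B KO lists had 98432, 120428 and 169126 windows and the WT lists 91894, 111771 and 165877. Of the 1000 windows with the highest fold enrichment over input in a list, 92.5%, 83.3% and 76.2% lay in common regions in A3B KO cells and 90.6%, 79.2% and 72.6% in WT cells. The highest fold in a common region had a median of 5.09, 6.08 and 6.04 in the A3B KO lists and 5.19, 5.61 and 6.55 in the WT lists. A region had to be called in the short DMSO lists to be common, so the lower shares at 6 h follow in part from the rule. Reads per library are unknown, and list length and fold can both move with depth, so conditions were compared only by rank: each common region was ranked within each list by its highest fold.

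At the edge of the rule, the members with the lowest −log10 q reached 2.00 in at least 1 list, the threshold at which the peaks had been called. They were chr5:179432976-179433947, chr3:9588248-9589261 and chr21:42183291-42184496, all outside genes, with folds between 2.22 and 5.63. Just outside the rule, 21666 regions were called in 5 lists, and the missing list was most often WT DMSO (6788 regions) or A3B KO DMSO (5921), the shortest of each line, and least often A3B KO PMA 6 h (908). Some were strong. A region at chr4:49145007-49146075 had folds of 48.3 and 51.8 in A3B KO cells at DMSO and PMA 6 h and of 53.8, 64.4 and 45.3 in WT cells, and lacked only a window in A3B KO PMA 2 h. In 45.7% of common regions each list had exactly 1 window, and the 6 highest summits of a region lay within 147 bp of each other at the median (quartiles 64 and 396 bp), or 88 bp in those 13240 single-window regions.

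Common regions lay at gene starts more often than regions called in fewer lists. The strongest summit was within 2 kb of the start of a protein-coding gene (of its Ensembl canonical transcript in GENCODE 44) in 12.1% of common regions (95% Wilson interval 11.8 to 12.5, counting error only), against 8.10% (7.74 to 8.47) of regions called in 5 lists and 4.56% (4.43 to 4.69) of regions called in 1. Within 2 kb of a protein-coding gene's end, the shares were 6.80%, 5.44% and 3.90%. Gene bodies went the other way, with 43.98% of common regions, 47.6% of those in 5 lists and 49.1% of those in 1 list, as did lncRNA genes, with 9.24%, 9.99% and 12.1%. No gene held 26.8%, 27.9% and 29.4%. The start share was higher in common than in 1-list regions on 23 of 23 chromosomes. Chromosome 19 had the most common regions for its length, 39.9 per Mb, followed by chromosome 17 with 30.2, and chromosome 13 the fewest with 3.53.

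Around starts, the common regions sat downstream. Of the 3518 at starts, 69.1% had the strongest summit downstream of the start, against 56.6% of the 4397 such regions called in 1 list, and the median position was 306.5 bp inside the gene. The strand bias of these windows followed the gene. GC skew, the excess of G over C on the sense strand divided by their sum, had a median of 0.13 (quartiles 0.07 and 0.20) in the 1125 common regions with a summit 0 to 500 bp downstream, and 88.6% of them were above 0. In regions called in 1 list the same bin had a median of 0.09 with 76.8% above 0. From 1 kb upstream up to the start, common regions had a median of -0.02 with 46.0% above 0. G runs of 3 or more had medians of 17 on the sense strand and 10 on the antisense strand in the 0 to 500 bp bin. Inside gene bodies away from both ends, the median skew was 0.0047 in common regions, and 51.0% were above 0, against 0.025 and 56.6% in regions called in 1 list. Regions of 5 lists came close to the common regions in the 0 to 500 bp bin, with a median skew of 0.11, 83.3% above 0 and the same medians of 17 and 10 G runs, and from 1 to 2 kb downstream 67.7% of common and 68.0% of 1-list regions were above 0.

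Common regions were also richer in G and C. The strongest 500 bp window had a median GC content of 47.2% (quartiles 43.4 and 50.8), against 46.0% in regions of 5 lists and 43.6% in regions of 1, and common regions were higher than 1-list regions on 23 of 23 chromosomes. Away from starts the medians were still 46.6%, 45.6% and 43.4%. A CpG-rich window (GC of at least 50% and CpG observed over expected of at least 0.6) was found in 8.32% of common regions, 4.62% of those of 5 lists and 2.06% of those of 1. Within a class of GC content, starts still had the larger share. Among windows of 60% GC or more, 30.5% of joined regions at starts were common (95% Wilson interval 29.2 to 31.8), against 14.5% (13.5 to 15.7) of those elsewhere. At 45 to 50% GC the shares were 18.5% and 13.9%. A second copy of the strongest window, at least 400 bases at 95% identity, was found elsewhere in the genome for 7.04% of common regions, against 4.98% of regions of 5 lists and 4.93% of regions of 1, and reads there cannot be placed on a single copy.

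Few regions held very high signal. A fold of 10 or more was reached in no list by 22739 common regions and in all 6 lists by 359, and 104 reached 20 or more in all 6. Of those 104, 44 were at protein-coding starts, 27 in no gene, 31 had a second copy in the genome, and 32 overlapped an anti-GFP window called without doxycycline, where no A3B-eGFP was induced.

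RPS12, a ribosomal protein gene, had the best mean log2 rank of all common regions (chr6:132814553-132815064). Its folds were 88.7, 102 and 83.7 in A3B KO cells (DMSO, PMA 2 h and PMA 6 h) and 151, 95.3 and 138 in WT cells, and it was among the first 5 in every list. MCL1, which encodes an apoptosis inhibitor of the BCL2 family (chr1:150578650-150579561), had 64.6, 103 and 74.4 in A3B KO cells and 48.9, 93.7 and 61.8 in WT cells. The A3B KO and WT values overlapped at both genes. Another strong region lay within 2 kb of the start of FLOT1, a membrane scaffold gene, and in the 3′ UTR of IER3, an immediate early gene (chr6:30743223-30743759), with 49.3, 129 and 56.9 in A3B KO cells and 40.1, 71.0 and 43.9 in WT cells, highest at PMA 2 h in each line. Strong genic regions, a set added after the values were seen, also included RPL15 (a ribosomal protein), HSPA8 (a constitutive chaperone), EIF1 (an initiation factor), CCNL1 (a cyclin of the splicing machinery), DDIT4 (a stress-induced inhibitor of mTORC1) and POLR3E (an RNA polymerase III subunit). KRT81, which overlaps KRT86 and encodes a hair keratin, and a later intron of LRP1B, a large lipoprotein receptor gene, were among them, and the LRP1B summit lay 586645 bp inside the gene.

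Outside genes, the strongest common regions formed a block of satellite repeats on chromosome 4 (chr4:49091203-49156498), chosen for description after its values were seen. It held 29 common regions, 11 of them with a second copy in the genome and 15 among the first 100 by mean log2 rank. Its median folds were 25.6, 25.9 and 30.3 in A3B KO cells and 31.6, 40.1 and 26.2 in WT cells. A second block on the short arm of chromosome 21 (chr21:8180836-8467059), in a region of ribosomal DNA copies and likewise chosen after its values were seen, held 90 common regions, all 90 with a second copy and 20 among the first 100. Anti-GFP windows without doxycycline lay on 24 of the 29 regions of the chromosome 4 block and on 71 of the 90 of chromosome 21. Of the first 100 regions, 47 were at protein-coding starts and 24 in no gene.

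Among the first 500 regions, the 8 with the narrowest range of ranks over the 6 lists were counted as steadiest. ARF6, a small GTPase of membrane traffic (chr14:49893166-49893706), had folds of 23.1, 31.6 and 20.9 in A3B KO cells and 23.7, 21.04 and 22.97 in WT cells, with ranks between 135 and 196. RCC1, the exchange factor of Ran (chr1:28506330-28506869), ranked between 180 and 301, and RPS27, a ribosomal protein gene (chr1:153990737-153991260), between 93 and 164. Of the other 5, 4 lay in the ribosomal DNA block of chromosome 21 and 1 near the end of a protein-coding gene on chromosome 17. Across all common regions, ranks in pairs of lists had Spearman's rho between 0.44 and 0.62 (28995 regions, a description), lowest for A3B KO DMSO with WT PMA 6 h and highest for A3B KO PMA 6 h with WT PMA 6 h. In the first 2000 regions by mean rank the order of pairs changed: A3B KO DMSO with WT DMSO had the highest rho, 0.68, and WT DMSO with WT PMA 6 h the lowest, 0.18.

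Some genes held many common regions. Of the protein-coding genes, 8467 held at least 1 summit, 4337 held exactly 1 and 100 held 10 or more. PDXDC1 on chromosome 16 held 55, but 32 of these had a second copy, and all 26 in each of ENSG00000205236 and ENSG00000270249, overlapping genes of chromosome 7, had one. CACNA1A, a calcium channel subunit gene on chromosome 19, held 21 in 427 kb, and RBFOX1, a splicing regulator gene on chromosome 16, held 21 in 2474 kb, none with a second copy. NUP210L held 19, with 11.04% of its 162 kb covered, and CTNNA1, the gene of alpha-catenin, held 18. The most windows, 56, were in a later intron of NSUN6 (chr10:18567169-18573481), at folds of 4.45 to 6.44, and in a region of no gene in the chromosome 4 block (chr4:49096054-49102047), at folds of 15.5 to 24.1.

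The knockout was checked at its own locus. Between the end of APOBEC3A and the start of APOBEC3B (chr22:38963185-38982346), the A3B KO lists had 0, 0 and 0 windows and the WT lists 4, 4 and 8. Inside APOBEC3B (chr22:38982347-38992804), the A3B KO lists had 0, 0 and 0 windows and the WT lists 0, 1 and 2. Neither interval held a common region, while 1 common region lay in APOBEC3A, where the A3B KO lists had 2, 2 and 1 windows and the WT lists 2, 1 and 1. All 6 lists had 0 windows at CDKN2A and CDKN2B, which MCF10A cells are known to lack.

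The share of genes with a common region at the start differed widely between gene lists. A common region lay within 2 kb of the start of 3458 of 19960 protein-coding genes, 17.3%. It did so for 23 of 30 translation factor genes, 63 of 84 ribosomal protein genes, 24 of 33 splicing and RNA-binding genes, 16 of 22 actin cytoskeleton genes and 21 of 33 immediate early genes. Replication-dependent histone genes had one in 18 of 69 cases, sharing 13 regions. Genes of other tissues, such as ALB and HBB, had one in 1 of 24 cases, MBP, and olfactory receptor genes in 9 of 401. Basal epithelial genes had one in 10 of 18 cases (KRT5 and KRT14 among them), luminal genes in 3 of 12 (KRT18, XBP1 and MUC1) and mesenchymal genes in 2 of 10 (ZEB1 and TWIST1), with none at VIM, ESR1, GATA3 or FN1. The median over a list's regions of their mean rank, where 1 is the highest, was 918 for immediate early genes and 1331 for ribosomal protein genes, against 10570 for the 3031 promoter regions of all protein-coding genes. It was 249 for the genes of the DRIP-qPCR primers, which the study itself had picked.

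Of the 17 primer pairs listed by the study for DRIP-qPCR, 16 matched the genome once. Their products fell in a common region in 10 cases, in a region of fewer lists in 3 (DDX1, GEMIN7 and SYT8) and in no called region in 3, which were TFF1, an intergenic control and JUNB. JUNB nevertheless had a common region elsewhere within 2 kb of its start.

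At PMA 2 h, more common regions changed rank in the same direction in both lines than in opposite directions. Change was measured as log2 of the rank at DMSO over the rank at PMA, so that a value above 0 is a higher place after PMA. In A3B KO cells 17.2% of common regions had a ratio of 1 or more, a 2-fold change in rank, and 16.9% one of -1 or less, and in WT cells 17.8% and 17.1%. A ratio of 1 or more was found in both lines for 1496 regions (5.16% of all common regions), and of -1 or less for 1699 (5.86%). Opposite changes of that size were seen at 761 regions (2.62%, higher in A3B KO and lower in WT) and 721 (2.49%, the other way). On the stricter scale of a 2-fold change in median-centred fold itself, 85 were higher and 304 lower in both lines. A change in rank need not be as large a change in fold, so the folds behind the main ratios are given beside them.

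HBEGF, an EGF receptor ligand, had the largest gain (chr5:140345958-140346492). Its folds at DMSO, PMA 2 h and PMA 6 h were 4.57, 62.5 and 6.51 in A3B KO cells and 4.05, 50.7 and 6.43 in WT cells. It stood at rank 22 in A3B KO and 34 in WT cells at 2 h, and at 12071 and 14890 at 6 h. EGR1, an immediate early transcription factor (chr5:138465799-138466369), had folds of 4.32, 49.4 and 8.57 in A3B KO cells and 4.43, 17.5 and 6.89 in WT cells. PLAU, the gene of urokinase (chr10:73912113-73912665), had 4.49, 29.7 and 18.9 in A3B KO cells and 2.68, 15.8 and 14.2 in WT cells, the only one of the 8 largest gains still past a log2 rank ratio of 5 at 6 h in both lines. The others were CCND3 (cyclin D3), OCLN (occludin of tight junctions), RAB43 (a small GTPase), CD9 (a tetraspanin) and RAPH1 (an actin regulator), with log2 rank ratios between 5.91 and 7.11. At OCLN, folds were 3.36, 22.5 and 7.80 in A3B KO cells and 3.59, 18.8 and 7.58 in WT cells. All of these summits but that of CCND3 lay within 2 kb of the canonical start. The CCND3 summit lay inside that gene but outside its canonical transcript. It was 2037 bp upstream of the nearest canonical start of any protein-coding gene, which need not be that of CCND3.

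Of the 8 largest losses at PMA 2 h, 3 were separate common regions of MYC, the proto-oncogene transcription factor. At its start (chr8:127735999-127737054) folds were 29.7, 6.43 and 23.6 in A3B KO cells and 36.8, 5.31 and 30.0 in WT cells, and at its 3′ UTR (chr8:127741470-127741985) 49.3, 6.61 and 40.3 in A3B KO cells and 43.9, 7.90 and 38.8 in WT cells. Both regions were back within a log2 rank ratio of 1 of DMSO at 6 h in each line, while the third, in a coding exon, had ratios of -2.85 in A3B KO and -2.08 in WT cells. DDX21, a nucleolar RNA helicase that unwinds R-loops, had 27.2, 7.29 and 12.7 in A3B KO cells and 20.7, 4.29 and 17.2 in WT cells. MIR205HG (the host of miR-205) and UBE2G2 (a ubiquitin conjugating enzyme) were also among them, with ratios between -6.93 and -5.88. KRT5, the basal keratin, was also low at both times, with 14.8, 4.4 and 4.1 in A3B KO cells and 27.1, 6.6 and 5.1 in WT cells.

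**Figure D1:**
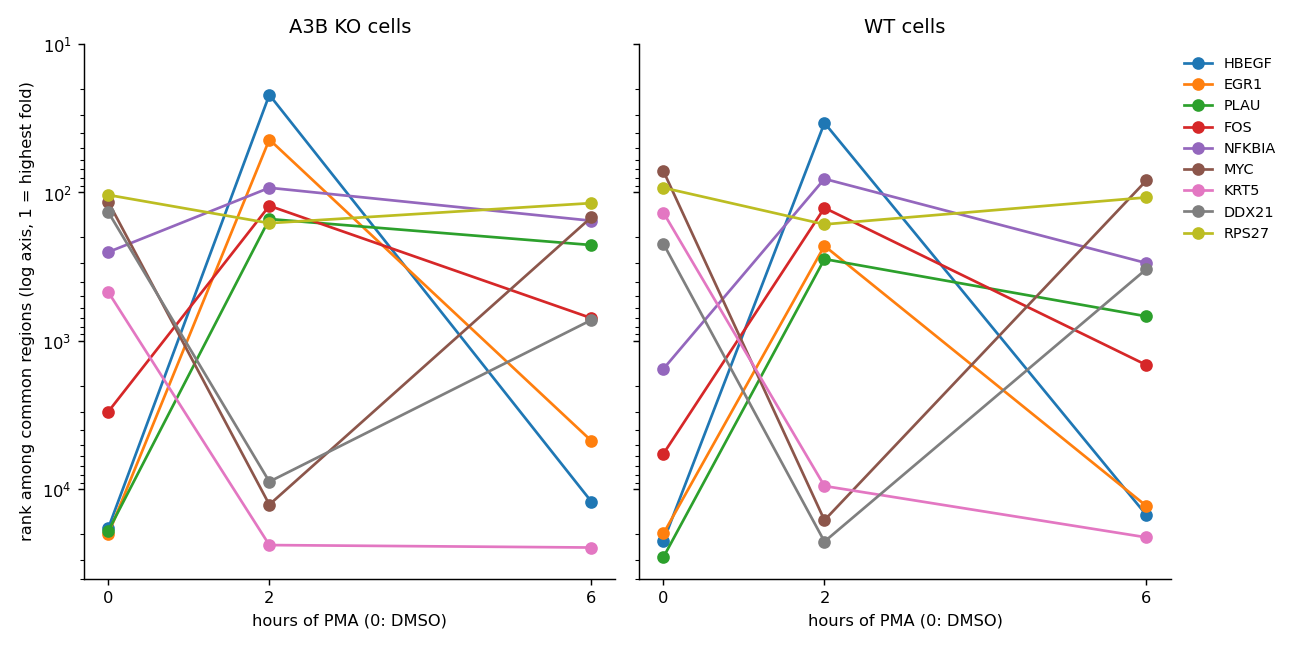
Rank among the 28995 common regions (log axis, 1 at the top) against hours of PMA, with DMSO at 0, for regions at 9 gene starts, A3B KO cells at the left and WT cells at the right. One library stands behind each point. HBEGF and EGR1 peak at 2 h, PLAU stays above its DMSO rank at 6 h, MYC dips and returns, KRT5 stays low and RPS27 moves least.

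The regions that ranked lower at 2 h differed in place and GC content from those that ranked higher, but the sets were not matched for rank at DMSO. A 2-fold fall in rank is open only to regions placed high at DMSO. Strong regions were themselves rich in starts: of those with a fold of 20 or more in all 6 lists, 42.3% were at starts, with a median GC content of 52.5%. The shares below therefore cannot separate direction from rank at DMSO. Of the 1699 lower in both lines, 37.7% were at protein-coding starts and 20.5% at gene ends, against 12.1% and 6.80% of all common regions, and their median GC content was 52.6%. Of the 1496 higher in both, 19.4% were at starts and 4.55% at ends, and the median GC content was 48.2%. At PMA 6 h, which is set against the same DMSO lists, 1498 common regions ranked higher in both lines (5.17%) and 1677 lower (5.78%). Of the regions moved at 2 h, 959 of the 1699 were again lower in both lines, while 358 of the 1496 were again higher and 396 were within a ratio of 1 of DMSO in both. Among regions higher at 2 h, 8.96% carried a window of the doxycycline PMA list on the strongest window and 4.21% one of the doxycycline DMSO list, with 1.20% for the list with no doxycycline. Among regions lower at 2 h, the shares were 6.53%, 12.2% and 2.71%, and among all common regions 4.03%, 4.04% and 2.16%. Starts and ends, which carry such windows most often, were not separated from direction here, and neither was rank at DMSO.

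By gene list, immediate early genes and ribosomal protein genes differed in direction. Their regions had median mean ranks of 918 and 1331, against 10570 for all promoter regions. A region low in the ranks at DMSO cannot fall 2-fold in rank. The shares of promoter regions set beside the lists were not matched for rank, so they are an unlike background. Of 21 immediate early promoter regions, 11 were higher in both lines at 2 h and 2 lower, where 8.51% of the 3031 promoter regions of protein-coding genes were higher in both and 18.6% lower. FOS, a subunit of AP-1, had folds of 8.1, 33.9 and 12.8 in A3B KO cells and 6.9, 24.2 and 12.2 in WT cells, and JUNB, its partner, 14.6, 59.8 and 15.7 in A3B KO cells and 10.2, 38.9 and 18.2 in WT cells. Of 63 ribosomal protein regions, 1 was higher and 45 were lower, with median log2 rank ratios of -2.50 in A3B KO and -2.25 in WT cells, against -0.21 and -0.36 for all promoter regions. RPS10 had folds of 20.7, 3.9 and 11.1 in A3B KO cells and 18.8, 8.8 and 12.2 in WT cells. At 6 h the ribosomal medians were -1.04 in A3B KO and -1.49 in WT cells, and 32 and 39 of the 63 were lower in each, where 34.7% and 37.5% of promoter regions were.

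Histone genes were lower at 2 h and lower still at 6 h. The shares of promoter regions set beside the counts of this paragraph were again not matched for rank. Of the 13 histone regions, 9 were lower in both lines at 2 h and 12 at 6 h, where 18.6% and 20.4% of promoter regions were lower in both. The median log2 rank ratios were -1.28 in A3B KO and -2.21 in WT cells at 2 h. At 6 h they were -2.96 in A3B KO and -4.52 in WT cells. Several histone genes are near-identical copies, so reads can be shared between them. H1-2, a linker histone gene, had folds of 69.8, 45.3 and 35.8 in A3B KO cells and 93.3, 33.3 and 21.1 in WT cells. Of 8 regions of small nucleolar RNA host genes, 5 were lower in both lines at 2 h, where 18.6% of promoter regions were, SNHG15 among them with 40.1, 6.7 and 17.7 in A3B KO cells and 30.0, 8.5 and 24.8 in WT cells. NF-κB target genes had 4 regions, of which 2 were higher in both lines at 2 h, where 8.51% of promoter regions were, and NFKBIA, the gene of the inhibitor IκBα, had 20.3, 39.3 and 23.2 at its start in A3B KO cells and 9.7, 33.6 and 17.9 in WT cells. LAMB3, a laminin-332 chain gene, held its gain at 6 h with 13.7, 48.3 and 38.8 in A3B KO cells and 8.3, 38.8 and 37.3 in WT cells.

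A3B KO against WT cells was compared at each time in the same way. The log2 of the rank in WT over the rank in A3B KO cells was past 1 in one direction or the other at 15.7% and 15.7% of regions at DMSO, 15.1% and 15% at PMA 2 h and 14.4% and 14.3% at PMA 6 h. These pairs of libraries share no library between times, and across regions the ratios at any 2 times had Spearman's rho between 0.0036 and 0.033 (28995 regions, a description). In the first 2000 regions by mean rank, rho was 0.15 for PMA 2 h with PMA 6 h, 0.05 for DMSO with PMA 2 h and -0.05 for DMSO with PMA 6 h. Regions with the same direction at all 3 times numbered 230 higher in A3B KO cells (0.793%) and 186 lower (0.641%). Among the 3031 promoter regions of protein-coding genes, 58 were higher (1.91%) and 10 lower (0.33%) at all 3 times. Of the 230 higher, 28.7% were at protein-coding starts, and of the 186 lower, 5.91% were, against 12.1% of all common regions. Second copies were found at 3.48% and 15.6%, against 7.04% of all common regions. The sets were not matched for rank, so these shares cannot separate direction from rank. With a 2-fold change in median-centred fold in place of rank, 3 were higher at all 3 times and 0 lower. The 3 were IL1A, CXCL1 and BCS1L, a gene of mitochondrial complex III assembly that the naming rule did not choose. Ranking by pileup gave 105 higher and 66 lower.

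CXCL1, a neutrophil chemokine gene (chr4:73870258-73870813), had folds of 27.4, 46.6 and 35.7 in A3B KO cells (DMSO, PMA 2 h and PMA 6 h) and 11.4, 8.72 and 12.5 in WT cells. Every A3B KO value was above every WT value, which choosing regions by their gain at all 3 times made likely here and below. IL1A, the gene of interleukin-1α (chr2:112783416-112784043), had 13.6, 11.6 and 9.53 in A3B KO cells and 5.23, 4.35 and 3.598 in WT cells, again without overlap. GSAP, which encodes a gamma-secretase activating protein (chr7:77415925-77416700), had 10.1, 12.8 and 10.3 in A3B KO cells and 3.62, 6.27 and 4.37 in WT cells. A region past the end of the canonical NFKBIA transcript (chr14:35401090-35401627) had 11.5, 25.3 and 14.4 in A3B KO cells and 7.18, 10.1 and 9.57 in WT cells, and MAP3K9 (a mitogen-activated kinase kinase kinase), KHDRBS1 (the RNA-binding protein Sam68), ACTR3 (of the Arp2/3 complex) and SPTLC1 (of sphingolipid synthesis) completed the 8 largest gains. Over the 3 times, log2 rank ratios lay between 2.72 and 5.81 for CXCL1, IL1A and GSAP and between 2.51 and 4.91 for the other 5.

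The 8 largest losses in A3B KO cells had folds of 2.55 to 18.4, and none lay at a protein-coding start. LINC01924, a lncRNA gene, had folds of 2.90, 4.05 and 6.36 in A3B KO cells and 8.41, 8.97 and 10.8 in WT cells. The first intron of KARS1, the lysyl-tRNA synthetase gene (chr16:75641121-75642866), had 4.61, 2.55 and 6.75 in A3B KO cells and 7.96, 9.29 and 11.2 in WT cells. NLGN4X, a neuroligin gene on the X chromosome, had 4.82, 7.94 and 5.76 in A3B KO cells and 8.41, 11.3 and 12.3 in WT cells. YWHAZ (a 14-3-3 protein), SPAG11B, SPDYE9, ZPLD2P and a region in no gene at chr19:8299077-8299632 made up the rest, of which SPAG11B, SPDYE9 and the chromosome 19 region have further copies in the genome.

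Among the lists, immediate early genes had medians above 0 in A3B KO against WT cells at each time. So did NF-κB target genes (0.88, 1.08 and 1.19 over 4 regions) and nuclear lncRNA genes (1.14, 0.82 and 0.55 over 5 regions). The DRIP-qPCR genes that the study had picked did too (0.48, 0.05 and 0.38 over 14 regions). These lists are not separate, as FOS, JUNB, DUSP1 and PHLDA1 were both immediate early and DRIP-qPCR genes. The NF-κB regions, from a list of 18 genes, included CXCL1, named above for its gain. At DMSO 2 of them were higher and 1, BIRC3, lower. Of the 21 immediate early regions, 9 were higher and 1 lower at DMSO, 9 and 0 at PMA 2 h, and 11 and 0 at PMA 6 h, where 19.5% of promoter regions were higher and 17.6% lower at DMSO, 22.2% and 11% at PMA 2 h, and 18.4% and 11.3% at PMA 6 h. The median ratios were 0.82, 0.85 and 1.05, against 0.01, 0.13 and 0.06 for all promoter regions, and 3 regions were higher at all 3 times, where 1.91% of promoter regions were, and 0 lower at all 3 times, where 0.33% were. Here too the shares of promoter regions were not matched for rank. Ribosomal protein regions had medians of 0.00, -0.09 and 0.47. R-loop resolution genes had medians of -0.09, 0.08 and -0.21 over 11 regions.

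A3B-eGFP windows lay on common regions more often than on others. Counted on the strongest 500 bp window, which is picked from a median of 7 windows in common regions and 1 in 1-list regions, the doxycycline PMA 2 h list overlapped 4.03% of common regions (95% Wilson interval 3.81 to 4.26), the doxycycline DMSO list 4.04% (3.81 to 4.27) and the list with no doxycycline 2.16% (2.00 to 2.34). In regions of 5 lists the shares were 1.56%, 1.49% and 0.868%, and in regions of 1 list 0.710%, 0.574% and 0.497%. Leaving out windows that the list with no doxycycline also touched, 2.74% of common regions, 1.10% of those of 5 lists and 0.425% of those of 1 overlapped the doxycycline DMSO list. The share for doxycycline DMSO was highest at protein-coding ends, 12.02%, and starts, 9.35%, and lowest in gene bodies, 1.91%. It was higher in common than in 1-list regions on 23 of 23 chromosomes. The anti-GFP lists come from cells other than those of the DRIP lists, and the part that signal common to all anti-GFP lists plays was not tested.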

How the data were processed

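DRIP–seq and ChIP–seq reads were trimmed with cutadapt 1.13, aligned to hg38 with STAR 2.6.1d, filtered with SAMtools 1.3.1 and Picard, and called as peaks with MACS2 (2.2.6 in the submitters' processing notes), each library against its input. The paper states that reads in the regions of the DAC exclusion list were taken out with bedtools 2.29.2. The files deposited by the authors give each window's pileup, the signal at the summit. The fold enrichment over input was deposited by the authors as a linear ratio. The p and q values were deposited by the authors as −log10, with a q threshold of 0.01. Reads per library are not given in the sources used here, so depth is unknown. Whether window starts count from 0 or 1 is also not stated, a doubt of 1 bp.

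Of all windows, 44 lay off chromosomes 1 to 22 and X and were left out. Windows of the 6 DRIP lists were merged from 1 bp of overlap, and regions with a window in all 6 were kept. A region's strongest summit is the one with the highest fold in any list. Genes came from GENCODE 44 (Ensembl canonical transcripts), sequence from hg38, and second copies from minimap2 2.31. Python 3.11.15, pandas 2.3.3, scipy 1.17.1 and pysam 0.24.0 were used; the merging and rank scripts were checked on simulated lists with known regions. With 1 library per condition no test was run, and intervals are 95% Wilson intervals.

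The members and gene lists were chosen with earlier results of these data known. Regions named are the 12 with the best mean log2 rank (of all regions and, added after the values were seen, of those in genes), the 8 largest changes in each direction, the 8 steadiest of the first 500, the genes with most common regions, the 3 weakest members, the 3 strongest regions of 5 lists, and from every gene list at most 4 members with the best rank or largest change. Some regions that this rule names are not reported here. Alternatives varied the q threshold, overlap, list length, start distance, ranking measure and second copies, and left out each list in turn.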

Additional observations from a re-analysis of the deposited data

Results flagged for a closer look

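At 13 of 123 named common regions, counted over PMA 2 h and PMA 6 h, the A3B KO and WT lines moved in opposite directions. Each line moved by a log2 rank ratio of size 1 or more. With 1 library behind each value, the difference between lines was not tested. At PMA 2 h against DMSO, 2.62% of common regions ranked higher in A3B KO and lower in WT cells, and 2.49% the other way. SFN, the gene of 14-3-3 sigma, had ratios of 1.43 in A3B KO and -1.14 in WT cells at 2 h. SNHG12, a small nucleolar RNA host gene, had 1.49 in A3B KO and -1.73 in WT cells. RNASEH2C, a subunit gene of the RNase H2 enzyme that cuts RNA in hybrids, had 2.34 in A3B KO and -2.6 in WT cells. PIM3, a kinase gene, had 3.76 in A3B KO and -1.35 in WT cells, and ACTB, of beta-actin, 2.14 in A3B KO and -1.04 in WT cells. CXCL1 had 1.31 in A3B KO and -1.77 in WT cells. A region of the chromosome 4 block at chr4:49129437-49130850 had -2.49 in A3B KO and 1.32 in WT cells. Of these 7, only the chromosome 4 region ranked lower in A3B KO cells.

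The other 6 were seen at PMA 6 h, where 2.68% of common regions ranked higher in A3B KO and lower in WT cells, and 2.47% the other way. GAPDH, a glycolytic enzyme gene, had -1.95 in A3B KO and 2.32 in WT cells, and EIF3C, an initiation factor gene with a second copy, -3.09 in A3B KO and 2.83 in WT cells. The intron of LRP1B had -1.12 in A3B KO and 1.21 in WT cells, and ENSG00000281181, in the ribosomal DNA block of chromosome 21, -1.32 in A3B KO and 2.17 in WT cells. At the top of the ranks such ratios can be shifts of few places. ENSG00000281181 went from rank 8 to 20 in A3B KO and from 18 to 4 in WT cells. MUC1, a mucin gene, had 1.53 in A3B KO and -1.46 in WT cells, and the region at chr4:49141248-49142048 had 1.35 in A3B KO and -1.07 in WT cells.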

How the results depend on the processing

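Of 30 alternatives, 14 left a count within 1.5 times the value reported, or a share or median within its 95% interval, and 16 did not. The 28995 common regions became 19292 with a −log10 q of at least 5 and 18076 with lists of equal length, and leaving out 1 list in turn gave 29864 to 35768. The share at protein-coding starts, 12.1%, was 8.03% within 1 kb, 13.9% at the higher q, 10.8% with equal lists, 11.5% from each gene's most 5′ start and 12.6% without second copies. The median GC content, 47.2%, was 47.6% at the higher q and 47% with equal lists. The share of merged regions with an A3B-eGFP window (doxycycline DMSO), 4.75%, was 3.36% off the list without doxycycline, 3.87% from 250 bp of overlap, 3.52% without second copies and 4.04% on the strongest window. The 416 regions with the same change in A3B KO against WT cells at all 3 times were 171 when ranked by pileup and 3 by median-centred fold. The 3195 with the same change at PMA 2 h in both lines were 389 by median-centred fold. The cause of these moves was not tested. The most 5′ start, second-copy and strongest-window alternatives were chosen after seeing the data. No paired analysis was possible because each condition was 1 library and no result comes from a test. Unknown depth limits every comparison of folds or list lengths between conditions.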
